A study of Mus musculus with 12 samples.

Results

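The genes of the AP-1 family were examined by chromatin accessibility in bone marrow of NZO/HILtJ mice, an inbred strain that becomes obese and diabetic. The 10 genes were Fos, Fosb, Fosl1 and Fosl2 of the Fos family, Jun, Junb and Jund of the Jun family, and the related genes Batf, Atf3 and Maff. A region of open chromatin (peak) was assigned to a gene if its centre lay inside the gene or within 20 kb of either end. This rule used positions alone and gave 72 of the 75281 peaks: 9 for Fos, 10 for Fosb, 12 for Fosl1, 7 for Fosl2, 1 for Jun, 7 for Junb, 10 for Jund, 4 for Batf, 6 for Atf3 and 6 for Maff. All 72 passed the filter on low counts, and the lowest count of any of them in any library was 10.

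The data were 12 ATAC-seq libraries, in which the transposase Tn5 cuts and tags DNA that nucleosomes leave exposed, so that reads over a peak measure how open it is. The libraries came from mice with separate numbers (written BM-35 and so on in the labels, BM for bone marrow) at 3 months (3 females, 3 males) and 18 months (3 females, 3 males), and the labels name no genotype other than the strain and no treatment. All 18-month females were in sequencing run 14 and all 18-month males in run 15, while the 3-month mice were spread over runs 28 to 31. Age therefore cannot be told apart from run, and at 18 months neither can sex. Total counts in peaks ranged from 7668099 to 12756647 per library. The protocol text describes a sort of T cells carrying CD3e and CD8, whereas the labels name bone marrow. No peak lay within 1 kb of a start of Cd3e, Cd8a, Cd8b1, Cd4 or Bcl11b, 5 of the 10 T-cell markers examined. The other 5 had promoter peaks, Cd3d and Cd3g at a shared one with means of 12.7 CPM at 18 months and 10.5 at 3 months, and so had 9 of 10 erythroid, 9 of 10 neutrophil and all 10 B-cell markers. In such a mixture of cells, fewer cells of a type and less accessibility per cell cannot be told apart.

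AP-1 is a dimer of basic leucine zipper (bZIP) proteins, most often a Fos protein with a Jun protein, that binds short palindromic DNA sites. Many of its genes are immediate-early genes, which growth factors, cytokines and stress switch on within minutes through MAP kinases, serum response factor and CREB. In blood cells AP-1 proteins act in myeloid differentiation, in inflammation and in lymphocyte activation, and Batf and Atf3 are partners that redirect or dampen that activity.

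The promoters of the members whose accessibility is described at length below are shown first, as the 250 bases before an annotated gene start (RefSeq, GRCm38.p6), read 5′ to 3′ on the gene's strand. Capitals mark matches on either strand to the motifs searched: the cyclic AMP response element (CRE) core TGACG, the TATA box TATAAA and the Sp1 box GGGCGG. Where TGACG runs on into TCA the site is a complete CRE, which contains the core on both strands.
Fos, chr12:85473640-85473889, plus strand: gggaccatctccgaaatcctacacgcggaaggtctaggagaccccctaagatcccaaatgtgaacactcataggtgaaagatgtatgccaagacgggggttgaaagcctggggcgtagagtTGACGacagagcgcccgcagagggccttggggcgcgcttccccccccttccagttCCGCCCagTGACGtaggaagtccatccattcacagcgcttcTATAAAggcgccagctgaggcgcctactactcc
Fosl2, chr5:32136222-32136471, plus strand: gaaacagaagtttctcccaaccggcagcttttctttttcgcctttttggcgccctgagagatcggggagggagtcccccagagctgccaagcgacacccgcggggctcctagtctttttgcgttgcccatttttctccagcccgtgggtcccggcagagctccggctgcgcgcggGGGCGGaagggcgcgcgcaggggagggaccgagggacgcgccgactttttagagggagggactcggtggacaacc
Jun, chr4:95052223-95052472, minus strand: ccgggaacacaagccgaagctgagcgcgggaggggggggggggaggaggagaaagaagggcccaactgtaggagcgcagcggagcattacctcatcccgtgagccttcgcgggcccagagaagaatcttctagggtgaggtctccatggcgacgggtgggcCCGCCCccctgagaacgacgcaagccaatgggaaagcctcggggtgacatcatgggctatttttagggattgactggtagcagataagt
Junb, chr8:84978749-84978998, minus strand: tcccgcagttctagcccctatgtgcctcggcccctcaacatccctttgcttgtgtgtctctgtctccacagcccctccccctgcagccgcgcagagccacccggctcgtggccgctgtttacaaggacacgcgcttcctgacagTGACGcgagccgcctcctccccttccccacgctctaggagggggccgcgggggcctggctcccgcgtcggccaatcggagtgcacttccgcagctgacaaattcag
Atf3, chr1:191183334-191183583, minus strand: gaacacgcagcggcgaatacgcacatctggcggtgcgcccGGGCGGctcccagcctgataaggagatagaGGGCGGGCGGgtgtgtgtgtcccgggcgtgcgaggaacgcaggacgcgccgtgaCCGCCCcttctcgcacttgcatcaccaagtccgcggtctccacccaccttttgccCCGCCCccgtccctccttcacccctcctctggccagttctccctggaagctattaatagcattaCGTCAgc
Maff, chr15:79347270-79347519, plus strand: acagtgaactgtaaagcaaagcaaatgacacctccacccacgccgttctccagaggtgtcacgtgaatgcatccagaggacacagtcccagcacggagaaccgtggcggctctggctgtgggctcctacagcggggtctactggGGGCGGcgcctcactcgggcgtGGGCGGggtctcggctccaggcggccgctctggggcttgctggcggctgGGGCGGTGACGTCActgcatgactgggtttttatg
Windows were found for 9 of the 10 genes, Fosl1 having none, and Maff had 3 starts, which gave 11 windows. The core TGACG was present in 7 of the 11 windows, those of Fos, Fosb, Junb, Batf and Atf3 and 2 of Maff, against 17.8% of 32851 windows of all genes. The Sp1 box was present in 8 of 11, against 32.7% of all windows. A complete CRE was found in 1 window, at the Maff start printed above, next to an Sp1 box, and in 1.55% of all windows. TATAAA was found in 1 window, that of Fos, and in 12.4% of all. The AP-1 site TGANTCA, in 6.75% of all windows, and the CArG box bound by serum response factor (CC, 6 bases of A or T, GG), in 1.47%, matched in 0 of the 11, which says only that these letters were not in these windows. The median GC content of the 11 was 61.2%, against 52.4% for all windows, and the median number of CG pairs was 15 against 6.

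Of the 72 peaks, 13 were promoter peaks, defined as reaching within 1 kb of a start of the member gene, and 59 were distal. RefSeq starts were not in the table used for Fosl1, so both ends of that gene counted as promoter. The median width of the 72 peaks was 830 bp, against 706 bp for all peaks, and 5 were at least 3 kb wide. The nearest annotated start was that of the member itself for 40 of the peaks and that of another gene for 32. The 15.3 kb peak over Junb also held the start of the peroxiredoxin gene Prdx2, and the 8.59 kb peak over Jund also held that of Iqcn, so their signal was shared with those genes.

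Levels are given as CPM, a count scaled to the size of its library. Divided by width, the promoter peaks of Fos and Fosl2 were the most open, at 30.6 ± 7.87 and 30.1 ± 7.34 CPM per kb (SD, n = 12 libraries). They were followed by Jund (25.8), Jun (24.2), Junb (22.1) and Fosb (21.4 and 20.3 at its 2 promoter peaks). The Fosl1 peaks stood at 16.8 at the upper-coordinate gene end, where the Ccdc85b start lies, and 12.0 at the lower-coordinate end. Atf3 had 16.7, Maff 13.1 and Batf 12.7 and 8.98 CPM per kb. Every neighbouring pair in this order overlapped in its range over the 12 libraries.

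The library of 3-month male BM-253, the only library of run 30, stood apart at these genes. It was the highest of the 6 3-month libraries at 39 of the 72 AP-1 peaks (54.2%), against 23.1% of all tested peaks, while each other 3-month library was highest at 6 to 8. At the Fos promoter it had 83.2 CPM where the other 5 had 37.2 to 46.6, and at the Fosl2 promoter 104 CPM where the others had 50.1 to 60.0. The summed promoter signal of 13 other immediate-early genes was 1500 CPM in this library and 984 to 1157 in the other 5, and that of 9 neutrophil genes was 292 against 176 to 220 CPM. Its sum was also the highest of the 3-month libraries in the other 5 lists of AP-1 partners and regulators and in the monocyte, B-cell and plasma-cell lists, 10 of the 15 lists in all. Their part in the AP-1 values was not tested. Its total count, 10318341, lay within the range of the other 3-month libraries. Its TMM scaling factor, 0.929, was the lowest of any library, and the other 3-month libraries had 0.952 to 1.029. The AP-1 peaks also had more signal than the background, with a median log2 CPM of 3.58 against 2.85. The background share of 23.1% was not matched for signal, and the part of signal or scaling in the difference was not tested. The main counts over the AP-1 peaks are therefore given with and without this library, as are the named peaks whose call it changed.

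**Figure D1:**
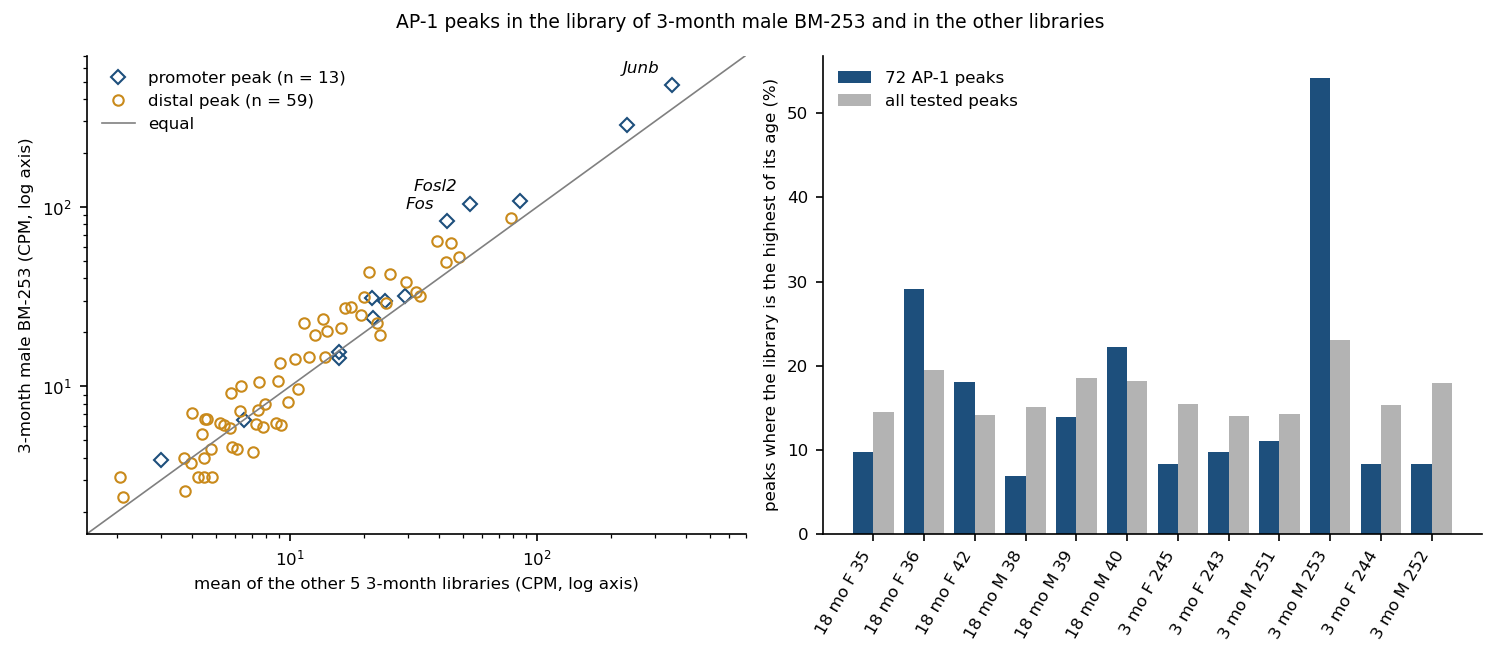
Left, CPM of each of the 72 AP-1 peaks in the library of 3-month male BM-253 against the mean of the other 5 3-month libraries, on log axes, with diamonds for promoter peaks, circles for distal peaks and a line of equality. Right, percent of the 72 AP-1 peaks (dark bars) and of all tested peaks (grey bars) at which each library was the highest of the 6 of its age: library BM-253 reached 54.2% and 23.1%.

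With age, 17 of the 72 AP-1 peaks changed (adjusted p under 0.05, 23.6%), 14 of them higher and 3 lower at 18 months. Among all 75164 tested peaks 21.0% changed, 9.43% higher and 11.6% lower, so the share called was near the background and the share called higher, 19.4%, was above it. The genes were chosen with earlier results of these data known, so this comparison is descriptive and not independent of the data. The median log2 fold change (18 minus 3 months) was 0.15 over the AP-1 peaks and 0.02 over all tested peaks. Called peaks that rose lay at Fosl2 (4 peaks), Fosb (3), Batf and Atf3 (2 each), and Fos, Fosl1 and Jun (1 each), and those that fell lay at Junb (2) and Jund (1). Maff had no called peak. Under offsets for peak abundance or for peak width the split moved to 18 higher and 1 lower (94.7% higher) and to 15 and 1 (93.8%), against 82.4% as scaled here. Over all tested peaks, 9.53% rose and 10.4% fell with the abundance offsets and 8.44% and 9.51% with the width offsets. Total-count scaling gave 18 higher and 2 lower at AP-1 peaks, and under it the balance of all tested peaks reversed, to 14.9% higher and 8.82% lower. Without library BM-253, 24 peaks were called, 22 higher and 2 lower, where the background was 24.9% called and 12.0% called higher, and 16 of the 17 calls were kept. Since this library was singled out as the highest 3-month one at many of these same peaks, leaving it out lowers the 3-month mean there, and the move towards higher calls at 18 months is fixed by that choice.

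Distal and promoter peaks differed in their shares of higher and lower calls across the genome, so each class of AP-1 peak is set beside its own. For all peaks the class was by the start of any gene, and 10 of the 59 distal AP-1 peaks, of which 1 rose and 1 fell, lay within 1 kb of another gene's start. Of the 59 distal AP-1 peaks, 11 rose and 1 fell, against 10.7% higher and 8.22% lower among all distal peaks (18.9% called), with medians of 0.15 and 0.07. Of the 13 promoter peaks, 3 rose and 2 fell, against 4.87% higher and 23.8% lower among all promoter peaks (28.6% called), with medians of 0.04 and -0.12. The 5 promoter calls came down to 3 without BM-35, BM-36, BM-39, BM-40, BM-243, BM-244 or BM-251 and to 2 without BM-245. They were 4 higher and none lower with abundance offsets (all promoter peaks 9.20% and 14.9%) and with width offsets (7.66% and 14.1%), and 5 higher and 1 lower with total-count scaling (8.97% and 18.7%). The median of the 13 promoter peaks was 0.19 without BM-253 (all promoter peaks -0.095). With abundance offsets it was 0.15 (-0.031), with width offsets 0.12 (-0.042) and with total-count scaling 0.12 (-0.040). Where the nearest start was the member's own, 12 of 40 peaks rose and 1 fell, and of the 32 peaks nearest to another gene's start 2 rose and 2 fell. The difference between these sets was not tested. Without library BM-253, 18 distal peaks rose and 1 fell (all distal peaks 13.3% and 9.95%), 4 promoter peaks rose and 1 fell (all promoter peaks 7.26% and 23.8%), 19 of the 40 peaks nearest to their own gene's start rose and 1 fell, and 3 of the other 32 rose and 1 fell. The libraries of the 2 ages did not overlap at 5 of the 72 peaks, 4 of them higher at 18 months, where the background was 7.24%, and 2.20% for higher. Within 10 kb of the genes, 10 of 45 peaks rose and 2 fell, and within 50 kb 21 of 149 rose and 7 fell, where 9.43% of all tested peaks rose and 11.6% fell.

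**Figure D2:**
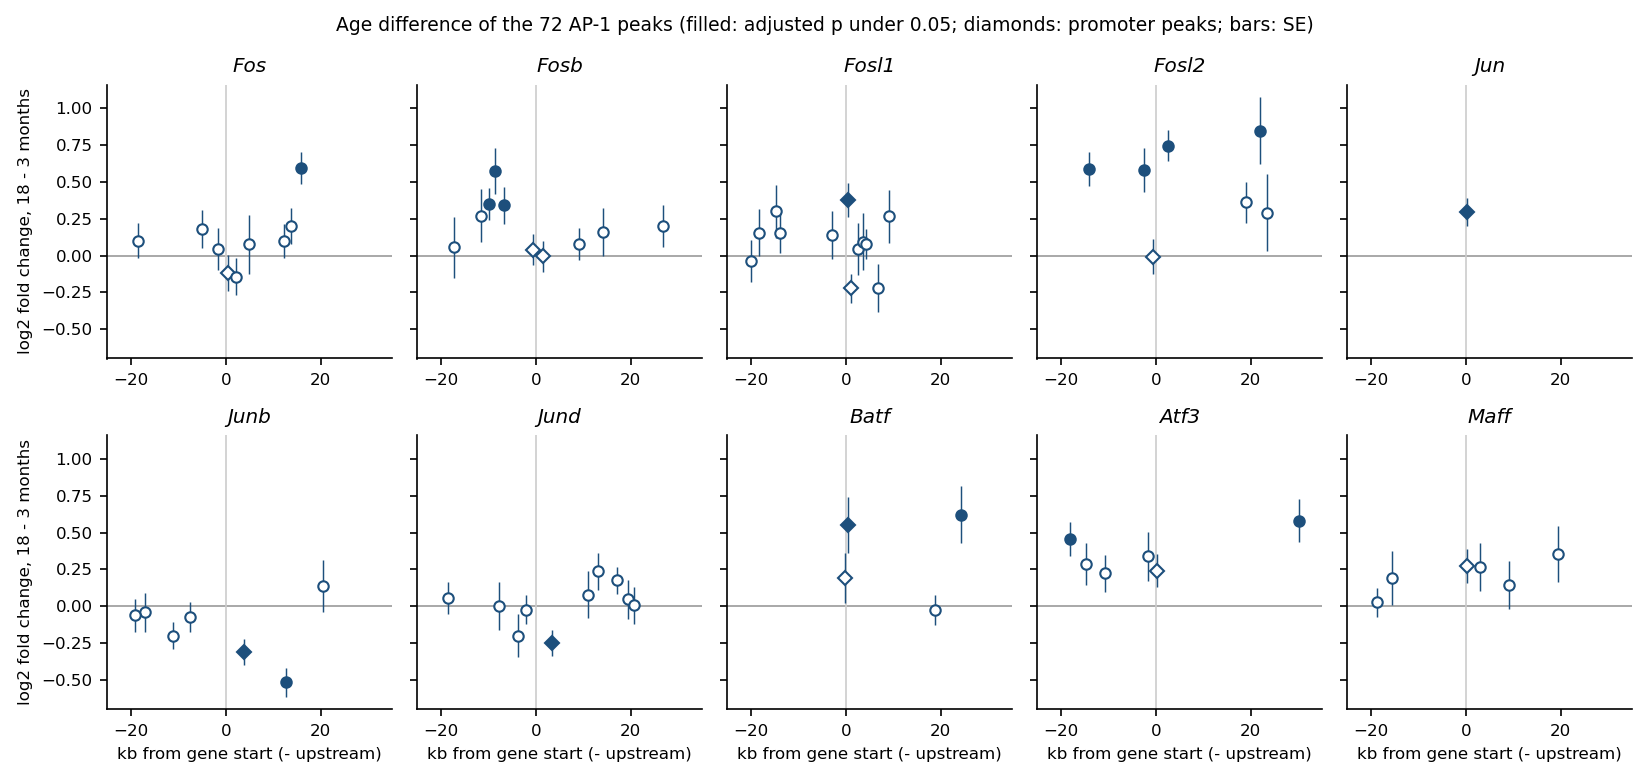
Age difference of each of the 72 AP-1 peaks (log2 fold change, 18 minus 3 months, bars are SE) against the distance of its centre from the gene start in kb, negative upstream. Fosl1 peaks are measured from the nearer end of the gene, negative towards lower coordinates. Filled symbols passed adjusted p under 0.05 and diamonds are promoter peaks: the filled symbols at Fosl2, Fosb, Fos and Atf3 are all distal and above 0, and those at Junb and Jund are below 0.

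Fosl2, which encodes the Fos protein Fra-2, had the most called peaks, 4 of 7, all distal and all higher at 18 months, and without library BM-253 the count was 5. The peak with the highest signal beside the promoter lay 2.62 kb into the gene (chr5:32138168-32140006). It ranged from 33.1 through a median of 36.2 to 39.4 CPM at 18 months and from 17.6 through 20.4 to 31.4 at 3 months. All 18-month libraries were above all 3-month libraries, of which BM-253 was the highest. The log2 fold change was 0.75 (SE 0.104, adjusted p = 3.4e-07), and 0.85 without library BM-253. A weak peak 22.0 kb from the start, just beyond the gene (chr5:32158327-32158602), showed the largest fold change of the 72, from 2.23 ± 0.590 to 4.02 ± 1.43 CPM (SD, n = 6; log2 fold change 0.85, SE 0.228, adjusted p = 0.0054). Its highest 18-month value, 6.83 CPM, came from male BM-39, and the other 5 had 2.95 to 4.08. The remaining calls were 14.1 kb and 2.46 kb upstream, with log2 fold changes of 0.59 and 0.58. All 4 were called in each of the 19 fits run.

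The Fosl2 promoter itself, a 2.04 kb peak (chr5:32134945-32136987), did not pass the test for age. Its values ran from 55.2 through a median of 58.2 to 73.4 CPM at 18 months and from 50.1 through 53.1 to 104 at 3 months, and the 2 ages overlapped. The log2 fold change was -0.01 (SE 0.119, adjusted p = 0.97), and 0.19 without library BM-253 (adjusted p = 0.082). The promoter window printed above for Fosl2 lies within this peak.

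Fos encodes the founding member of the family. Its 1.56 kb promoter peak (chr12:85473500-85475058), which holds the printed window, ran from 37.5 through 44.9 to 55.6 CPM at 18 months and from 37.2 through 44.5 to 83.2 at 3 months. The ages overlapped, and the log2 fold change was -0.12 (SE 0.124, adjusted p = 0.54). Without library BM-253 the 3-month libraries ranged from 37.2 to 46.6 CPM and the log2 fold change was 0.09, still short of the threshold (adjusted p = 0.51).

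Of the 8 distal Fos peaks, 1 was called, 15.8 kb downstream of the start (chr12:85489021-85490310). Its values were 18.4, 21.7 and 23.2 CPM (lowest, median, highest) at 18 months and 12.9, 13.6 and 16.2 at 3 months, with no overlap, and library BM-253 had 14.5. The log2 fold change was 0.59 (SE 0.108, adjusted p = 4.7e-05) and 0.58 without library BM-253. The distal Fos peak with the highest signal lay 18.5 kb upstream (chr12:85454746-85456067) and was at 46.8 ± 8.99 and 43.6 ± 10.8 CPM (SD, n = 6; log2 fold change 0.10, adjusted p = 0.59). Without library BM-253, which had 64.4 CPM there, that difference was 0.25 and passed (adjusted p = 0.031), as it did with abundance offsets (0.29, adjusted p = 0.023). In the fit without library BM-253, 5 distal Fos peaks were called, all higher.

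Fosb, an immediate-early gene best known for long-lasting induction in neurons, had 3 called peaks of 10, all distal, upstream and higher at 18 months. The largest change was at a narrow peak 8.62 kb upstream (chr7:19318448-19318879). It ran from 6.15 through 6.75 to 7.43 CPM at 18 months and from 4.06 through 4.51 to 5.43 at 3 months, without overlap (log2 fold change 0.57, SE 0.158, adjusted p = 0.0065). The flanking called peaks, 6.61 kb and 9.95 kb upstream, had log2 fold changes of 0.34 and 0.35. The first was called in 6 of the 19 fits and was lost with DESeq2 (adjusted p = 0.087), DESeq2-type size factors (adjusted p = 0.057) and width offsets (adjusted p = 0.15). It was also lost in 10 of the 12 fits that left out a library, all but those without BM-39 or BM-253 (0.25 to 0.36, adjusted p 0.058 to 0.16), and the other without BM-36 (0.30, adjusted p = 0.050) or BM-245 (0.31, adjusted p = 0.063). Neither of the 2 promoter peaks passed. The stronger of them (chr7:19307921-19309094) had 25.1 ± 4.53 CPM at 18 months and 25.1 ± 2.57 at 3 months (SD, n = 6; log2 fold change -0.01, adjusted p = 0.98). The strongest distal peak, 9.02 kb downstream of the start (chr7:19300434-19301617), was at 23.9 ± 4.38 and 22.5 ± 1.71 CPM (log2 fold change 0.08, adjusted p = 0.65).

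Fosl1 encodes Fra-1, which, like Fra-2, lacks the transactivation domain of Fos. Of its 12 peaks 1 was called, the promoter peak at the lower-coordinate gene end (chr19:5447412-5448904), named after its values were seen. It ran from 16.5 through 20.9 to 22.5 CPM at 18 months and from 13.5 through 14.6 to 18.2 at 3 months (log2 fold change 0.38, SE 0.114, adjusted p = 0.014), and the ages overlapped. Without female BM-245 the difference was 0.33 and not called (adjusted p = 0.052). The peak at the other end of Fosl1, over the Ccdc85b start (chr19:5456277-5457913), was at 29.6 ± 2.58 CPM at 3 months and 25.4 ± 1.77 at 18 months and did not pass (log2 fold change -0.22, adjusted p = 0.10). The strongest distal peak held the start of Fibp (chr19:5459242-5461065) and had a log2 fold change of 0.08 (adjusted p = 0.62).

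In the Jun family, the promoter peak of Jun was called higher and those of Junb and Jund lower, the latter 2 not with the abundance or width offsets, and the difference between the members was not tested. Jun, whose protein is the main partner of Fos and the target of the JNK kinases, had a single peak, 4.10 kb wide, over its start (chr4:95049881-95053979). It ran from 93.0 through 105 to 130 CPM at 18 months and from 77.8 through 88.6 to 107 at 3 months, with overlap (log2 fold change 0.30, SE 0.095, adjusted p = 0.020). It was called higher in 14 of the 19 fits, and its log2 fold change lay between 0.24 and 0.54 in all of them. The 5 fits without the call were those without BM-35, BM-36, BM-40, BM-243 or BM-244 (0.24 to 0.29, adjusted p 0.050 to 0.074), and without BM-253 it was 0.36. Among all tested peaks at least 3 kb wide, 49.6% were called, 5.92% higher and 43.7% lower, with a median of -0.21.

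Junb encodes a Jun protein that restrains proliferation of myeloid cells. Its 15.3 kb peak (chr8:84967267-84982558) had the highest count of the 72, with 280, 293 and 337 CPM (lowest, median, highest) at 18 months and 313, 367 and 479 at 3 months, the highest being library BM-253. It fell by 0.31 on the log2 scale (SE 0.0879, adjusted p = 0.0076), and by 0.23 without library BM-253 (adjusted p = 0.011). With the offsets for abundance or width the difference shrank to -0.022 and -0.029 and was not called. The neighbouring peak over the start of Rnaseh2a, 12.8 kb downstream (chr8:84964925-84966995), fell in each of the 19 fits. It ran from 26.5 through 33.6 to 42.6 CPM at 18 months and from 43.5 through 50.1 to 52.5 at 3 months, without overlap (log2 fold change -0.52, SE 0.0989, adjusted p = 0.00011). The strongest distal peak, over the start of Hook2 (chr8:84988000-84991567), was at 69.7 ± 7.08 and 80.0 ± 7.22 CPM (SD, n = 6; log2 fold change -0.20, adjusted p = 0.11).

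Jund encodes the Jun protein that is abundant in resting cells. Its 8.59 kb peak (chr8:70696959-70705547) ran from 176 through 202 to 237 CPM at 18 months and from 201 through 236 to 287 at 3 months, with overlap (log2 fold change -0.25, SE 0.0877, adjusted p = 0.034). The call was lost without library BM-253 (-0.18, adjusted p = 0.060) and also without BM-35, BM-38, BM-39, BM-40, BM-245 or BM-251 (-0.26 to -0.18 over the 7 fits, adjusted p 0.056 to 0.11). It held in 9 of the 19 fits, being also lost with total-count scaling (-0.17, adjusted p = 0.064), and the sign turned to 0.031 and 0.018 with the abundance and width offsets. None of the 9 distal Jund peaks was called, and the strongest, 17.1 kb downstream of the start (chr8:70713028-70716680), was at 37.6 ± 2.25 and 33.2 ± 2.11 CPM (SD, n = 6; log2 fold change 0.17, adjusted p = 0.18), its lowest 18-month library above its highest 3-month one. It passed with total-count scaling (0.25, adjusted p = 0.026), abundance offsets (0.33, adjusted p = 0.0032) and width offsets (0.39, adjusted p = 0.0011).

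Batf encodes a small bZIP protein without a transactivation domain that pairs with Jun proteins in lymphocytes and dendritic cells. Its promoter held a pair of narrow peaks. The one over the start (chr12:85686342-85686886) did not pass, at 7.33 ± 1.62 and 6.49 ± 1.99 CPM (SD, n = 6; log2 fold change 0.19, adjusted p = 0.45). The one just inside the gene (chr12:85687064-85687493), named after its values were seen, ran from 3.89 through 4.45 to 5.65 CPM at 18 months and from 2.48 through 2.91 to 4.16 at 3 months (log2 fold change 0.55, SE 0.191, adjusted p = 0.033). It was called in 10 of the 19 fits, and without BM-36, BM-39, BM-42, BM-243, BM-244, BM-245 or BM-251 it was not (0.52 to 0.53, adjusted p 0.059 to 0.069), nor with abundance offsets (0.47, adjusted p = 0.070) or width offsets (0.45, adjusted p = 0.087). A weak peak 24.2 kb from the start, beyond the gene (chr12:85710705-85711068), rose from 3.77 ± 0.811 to 5.77 ± 1.69 CPM (log2 fold change 0.62, adjusted p = 0.018), but was called in 15 of the 19 fits. The call was lost without BM-36, BM-39 or BM-252 (0.47 to 0.53, adjusted p 0.061 to 0.095) and with width offsets (0.50, adjusted p = 0.072). The strongest Batf peak, inside the gene at 18.8 kb (chr12:85704782-85706199), was at 30.5 ± 3.43 and 31.1 ± 4.21 CPM (log2 fold change -0.03, adjusted p = 0.88).

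Atf3 is a stress-induced gene whose protein mostly represses inflammatory targets. Both called peaks of its 6 were distal, higher at 18 months and called in each of the 19 fits. The strongest distal peak, 18.1 kb upstream (chr1:191200972-191201828), ran from 17.1 through 18.4 to 21.0 CPM at 18 months and from 11.7 through 12.8 to 19.4 at 3 months. Only library BM-253, at 19.4 CPM, overlapped the 18-month range, and the other 5 stayed at or below 13.1. The log2 fold change was 0.46 (SE 0.118, adjusted p = 0.0036) and 0.56 without that library. The other lay beyond the gene, 30.2 kb from the start (chr1:191152814-191153464), and rose from 7.12 ± 1.43 to 10.7 ± 1.58 CPM (SD, n = 6; log2 fold change 0.58, SE 0.145, adjusted p = 0.0027). The promoter peak (chr1:191182435-191183930) ran from 21.6 through 27.6 to 30.1 CPM at 18 months and from 19.6 through 21.6 to 31.2 at 3 months. It missed the threshold with library BM-253 (log2 fold change 0.24, SE 0.111, adjusted p = 0.12) and passed without it (0.34, SE 0.101, adjusted p = 0.0078) or without BM-38 (0.32, adjusted p = 0.043). With all libraries it passed under total-count scaling (0.32, adjusted p = 0.018), abundance offsets (0.35, adjusted p = 0.0081) and width offsets (0.33, adjusted p = 0.026). Without BM-253, 5 of the 6 Atf3 peaks were called higher.

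Maff encodes a small Maf protein that lacks a transactivation domain and pairs with other bZIP proteins. Its promoter peak (chr15:79347068-79348396), over the start whose window holds the complete CRE, ran from 16.4 through 19.2 to 22.3 CPM at 18 months and from 12.3 through 15.4 to 18.6 at 3 months (log2 fold change 0.27, SE 0.114, adjusted p = 0.080). All 6 Maff peaks had log2 fold changes above 0, and none passed as scaled here. The promoter peak passed with total-count scaling (0.35, adjusted p = 0.016), abundance offsets (0.31, adjusted p = 0.034) and width offsets (0.33, adjusted p = 0.034). The strongest distal peak, over the start of Pla2g6 (chr15:79327069-79328757), was at 44.9 ± 6.26 and 44.0 ± 4.89 CPM (log2 fold change 0.03, adjusted p = 0.89), and passed with abundance offsets (0.21, adjusted p = 0.039).

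**Figure D3:**
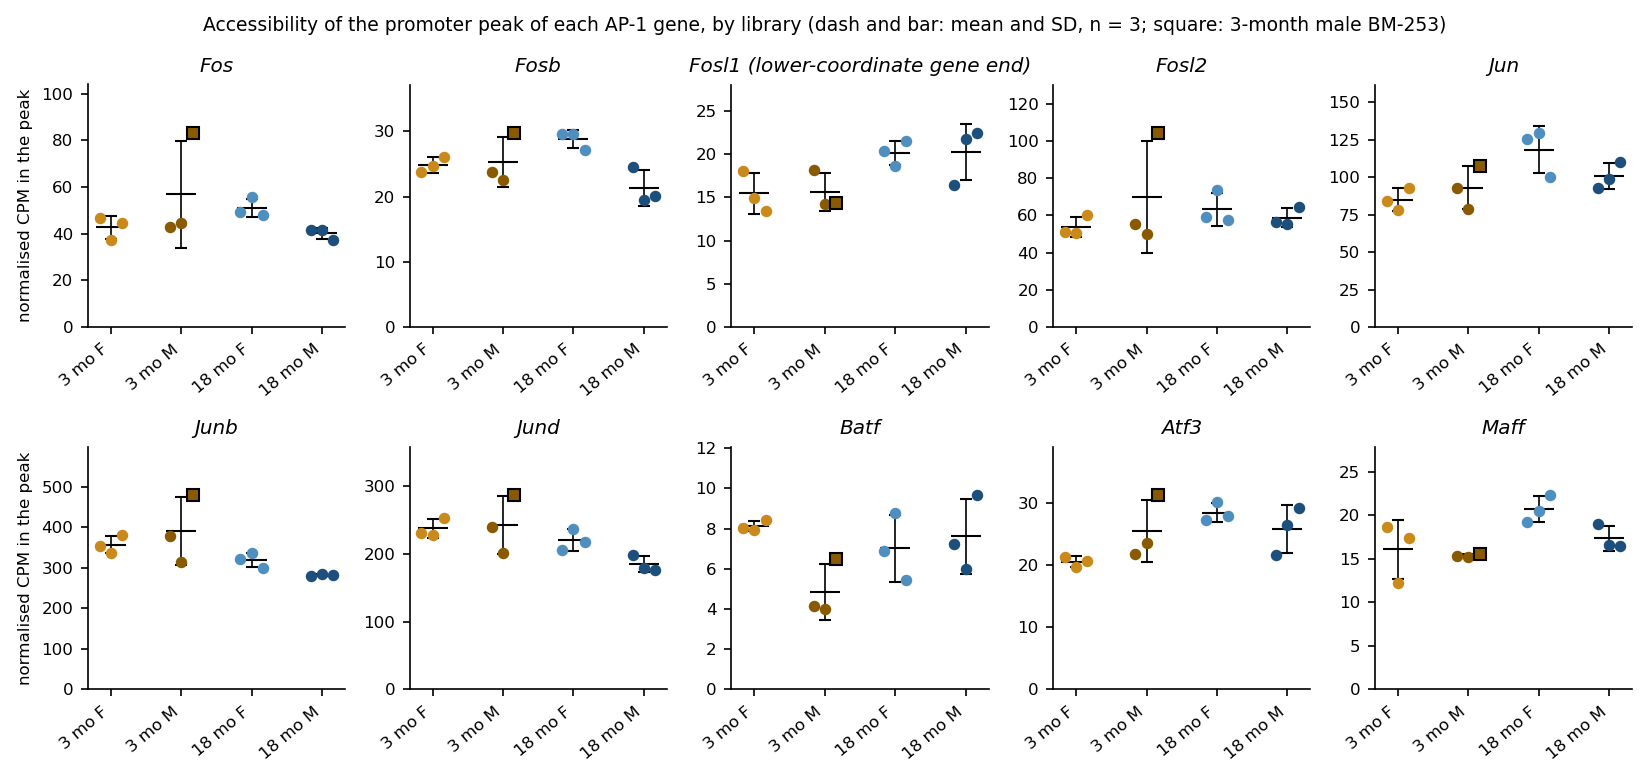
Normalised CPM in 1 promoter peak of each gene, by library, in the 4 groups of age and sex (F female, M male, mo months; dash and bar are the mean and SD of 3 libraries). The square marks 3-month male BM-253, which lies at 83.2 CPM for Fos and 104 CPM for Fosl2, above every other library of those panels.

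Ages were also compared within each sex. In females 13 of the 72 peaks rose and none fell, where 5.70% of all tested peaks rose and 6.20% fell (11.9% called), with a median log2 fold change of 0.25. The count in females was 6 higher and none lower without BM-35 (background 2.84% higher, 3.84% lower), without BM-36 (2.29% and 4.02%) and without BM-244 (2.33% and 4.37%). It was 7 higher without BM-245 (2.78% and 3.46%) and 8 higher without BM-243 (4.44% and 5.46%), with none lower. In males 3 rose and 4 fell, where 3.21% rose and 8.18% fell (11.4% called), with a median of 0.11. Without library BM-253, a male, 14 rose and 1 fell in females, against 7.53% and 8.16% of all tested peaks (15.7% called), and 7 rose and 1 fell in males, against 3.25% and 6.27% (9.52% called). In males without BM-252 of the same age 2 rose and 6 fell, against 4.73% and 11.4% of all tested peaks, and without BM-40 2 rose and 2 fell, against 1.83% and 5.77%. Scaling by total counts alone gave 8 higher and 3 lower in males, and all tested peaks turned with them, to 6.11% higher and 5.45% lower (median log2 fold change 0.14, against 0.03 as scaled here). Abundance offsets gave 5 higher and 1 lower in males, where all tested peaks had 3.17% higher and 4.73% lower, and width offsets 6 and 1, against 2.91% and 4.91%. The AP-1 median of 0.11 in males became 0.013 without BM-252 and 0.16 without BM-253. It was 0.022 with width offsets, 0.092 with abundance offsets and 0.21 with total-count scaling.

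The difference of the age effect between the sexes was tested as an interaction. None of the 72 peaks passed, against 0.00532% of all tested peaks, and DESeq2 also called 0 of the 72. At an unadjusted p under 0.05 there were 13, where the background was 10.0%, and in 12 of them the age effect was lower in males, where it was 6.27%. The age effect was lower in males at 52 of the 72 peaks, against 51.0% of all. Without library BM-253 these counts were 4 (background 3.74%) and 45 of 72 (background 50.6%). Other scalings of all 12 libraries also passed none of the 72. Their peaks at an unadjusted p under 0.05 were 6 with abundance offsets, 5 of them lower in males (all 75164 tested peaks 6893 and 3831). They were 8 and 7 with width offsets (7373 and 4499) and 12 and 11 with total-count scaling (7239 and 3305). Without male BM-252, in contrast, 5 of the 72 passed, all with a lower age effect in males, where 2.16% of all tested peaks passed and 1.84% in that direction. They were the promoter peaks of Fos, Fosl2 and Junb and the distal Fos peaks 18.5 kb and 4.98 kb upstream. Male BM-253 stayed in that fit and was the highest 3-month library at all 5, at 1.26 to 1.89 times the next.

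The smallest unadjusted p among the promoter peaks was that of Fos. In females it had 48.1, 49.4 and 55.6 CPM at 18 months and 37.2, 44.4 and 46.6 at 3 months, and every older female was above every younger one. In males it had 37.5, 41.5 and 41.8 CPM at 18 months and 42.9, 44.5 and 83.2 at 3 months, and every older male was below every younger one. The peak was picked for its p, so these separations add no support. The interaction was -0.75 (SE 0.212, unadjusted p = 0.00071, adjusted p = 0.24), and -0.37 without library BM-253 (unadjusted p = 0.038). The adjusted p is from edgeR's quasi-likelihood test over all peaks. The distal Fos peak 18.5 kb upstream had an interaction of -0.74 (SE 0.202, adjusted p = 0.23), and of -0.47 without library BM-253. No AP-1 peak passed the test for sex, against 0.162% of all tested peaks, and 2 of 72, both at Fosl2, had an unadjusted p under 0.05, against 7.57% of all. Without library BM-253 none passed and 9 of 72 had an unadjusted p under 0.05, 8 of them lower in males. Over all 75163 peaks tested there it was 9646, of which 5811 were lower in males. DESeq2 also called 0 for sex. Runs 29 and 31 each held a 3-month female and a 3-month male, and with run as a factor in the 3-month libraries alone 0 of the 72 were called for sex, against 0.0572% of all tested peaks.

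**Figure D4:**
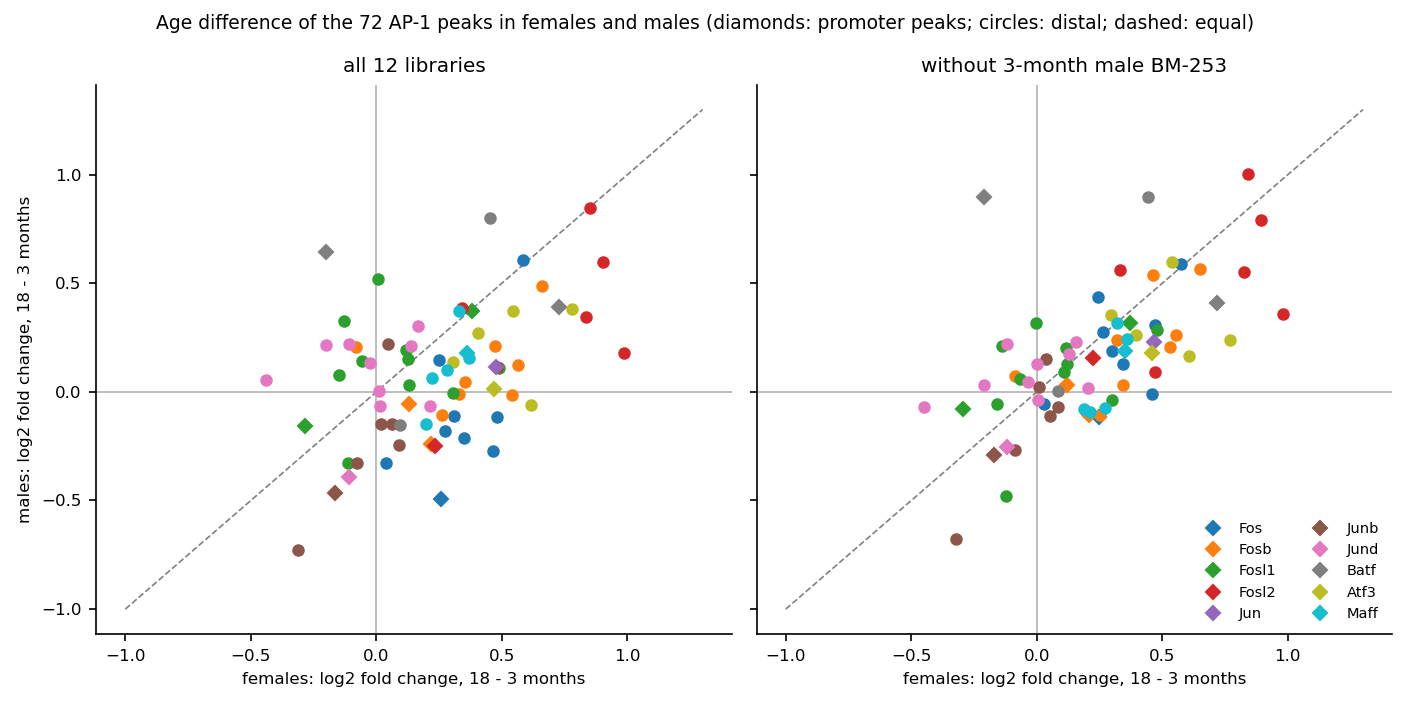
Log2 fold change (18 minus 3 months) of the 72 AP-1 peaks in males against females, with all 12 libraries (left) and without 3-month male BM-253 (right), coloured by gene, with diamonds for promoter peaks and a dashed line of equality. On the left 52 of the 72 points lie below the line and on the right 45.

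The other genes of the pathway were followed at their strongest promoter peak. Of 59 partners and regulators of AP-1, 56 had one, and 3 rose and 13 fell (5.36% and 23.2%), close to the 4.87% and 23.8% of all promoter peaks, with a median log2 fold change of -0.13. Without library BM-253, 5 rose and 13 fell. The 3 that rose with all libraries were among the 13 measured immediate-early genes. The 2 added without BM-253, named after their values were seen, were the immediate-early gene Klf2 (0.38, adjusted p = 0.00069) and the phosphatase gene Dusp4 (0.31, adjusted p = 0.047). Nr4a1, a nuclear receptor gene, went from 17.7 ± 2.39 to 26.2 ± 3.07 CPM (SD, n = 6; log2 fold change 0.56, SE 0.109, adjusted p = 0.00014). Klf6, a zinc finger factor, and Zfp36, which encodes the mRNA-destabilising protein tristetraprolin, had log2 fold changes of 0.29 (adjusted p = 0.044) and 0.27 (adjusted p = 0.042). These 2 calls held in 8 and 7 of the 19 fits. Klf6 was kept only without BM-38, BM-251 or BM-253 among the 12 fits that left out a library (0.23 to 0.31 where lost, adjusted p 0.053 to 0.15), and Zfp36 only without BM-38, BM-39 or BM-253 (0.21 to 0.30 where lost, adjusted p 0.050 to 0.14). Nr4a1 was called in all 19. Of the same 13, 1 fell.

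Of 14 kinases upstream of AP-1, 7 fell, none rose and 7 did not pass, where 23.8% of all promoter peaks fell. Map2k4, which activates JNK, went from 42.6 ± 6.78 to 28.4 ± 2.98 CPM (log2 fold change -0.58, SE 0.103, adjusted p = 3.5e-05), and Map3k1, above it in that cascade, had a log2 fold change of -0.52 (adjusted p = 5.4e-05). Among 8 dual-specificity phosphatases, which switch MAP kinases off, 1 was called: Dusp8 went from 45.2 ± 7.90 to 21.8 ± 1.90 CPM (SD, n = 6; log2 fold change -1.04, SE 0.103, adjusted p = 1.0e-10). Of 12 other bZIP genes 3 fell, among them the repressor Bach1 (log2 fold change -0.48, adjusted p = 0.00033). Serum response factor and its partners had 1 lower of 6, and the CREB group had none of 3.

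**Figure D5:**
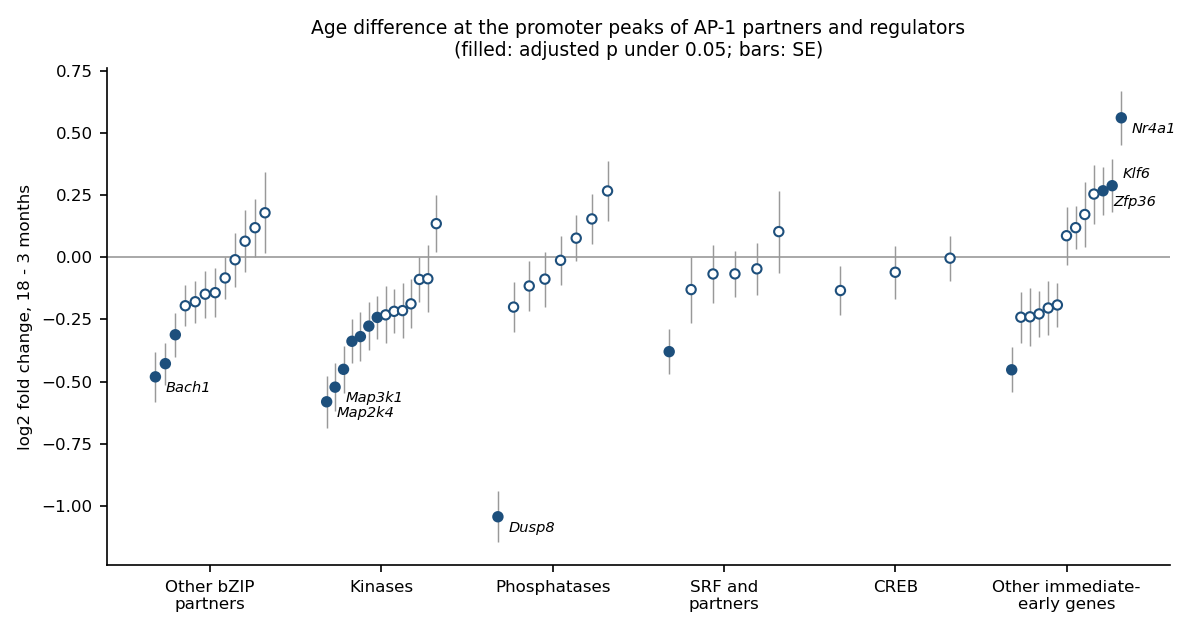
Log2 fold change (18 minus 3 months, bars are SE) at the strongest promoter peak of each of the 56 AP-1 partners and regulators, sorted within 6 groups by role. Filled symbols passed adjusted p under 0.05: 3 lie above 0, all among the immediate-early genes, and 13 below, of which 7 are kinases.

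Markers of some blood cell types moved with age in the same libraries, where 4.87% of all promoter peaks rose and 23.8% fell. Promoter peaks of all 9 measured erythroid genes fell, their summed signal going from 443 to 577 CPM at 3 months to 237 to 272 at 18 months, and the other listed gene, Alas2, had no promoter peak. Of 9 neutrophil genes 5 rose and none fell, with sums of 176 to 292 CPM at 3 months, the highest being library BM-253, and 236 to 295 at 18 months. Of 9 monocyte and macrophage genes 3 rose, or 4 without library BM-253, and none fell (63.5 to 81.7 and 79.5 to 97.8 CPM), and of 10 B-cell genes none was called (93.9 to 122 and 80.2 to 112 CPM). Of 5 T-cell genes, measured at 4 peaks because Cd3d and Cd3g share one, 1 rose and 1 fell (66.7 to 82.2 and 61.7 to 68.7 CPM), of 4 plasma-cell genes likewise 1 each, of 4 megakaryocyte genes 1 fell, and of 5 NK-cell and 6 stem and progenitor genes none was called. Their part in the AP-1 results was not tested.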

How the data were processed

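Per the labels, the 12 libraries came from bone marrow of 12 NZO/HILtJ mice. The deposited values are the authors' read counts over 75281 consensus peaks, as whole numbers with no normalization and a smallest value of 1. The submitters' processing notes name Trimmomatic, BWA, MACS2, DiffBind and edgeR and the build mm10 (GRCm38), without versions or roles. Whether duplicates were removed and read ends shifted to the cut site is not given in the sources used here. Duplicate reads, if kept, would understate counting error.

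Peaks above 1 CPM in at least 2 libraries were tested (75164). Counts were scaled by TMM and tested with edgeR 4.0.16 in R 4.3.3 (quasi-likelihood F test, glmQLFit and glmQLFTest). Age and sex were terms of an additive model over all 12 libraries, and effects within a sex and the interaction came from a model with 4 group means. Adjustment followed Benjamini and Hochberg across the 75164 peaks, the threshold was an adjusted p of 0.05, and standard errors were derived from the F statistic. CPM is a count scaled to the TMM-adjusted library size. The fit was tested on simulated data.

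Member genes and gene starts were taken by position from RefSeq (GRCm38.p6), and promoter sequences came from RefSeq. Groups, mouse numbers and runs were read from the labels. Replicates differed beyond counting error (chi-square per degree of freedom 2.17 to 6.08), and 0 pairs of libraries were identical. P-values measure the spread among the mice of a group. The younger mice of each sex were in different runs, so their spread includes differences between runs as well as between mice. The older mice of each sex shared a run, so theirs does not. Intervals for single counts are not given, since the replicates' spread was larger.

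The members and lists were chosen with earlier results of these data known. Peaks named were, for each gene, the promoter peak and the distal peak with the highest mean CPM, the called distal peak with the largest fold change, and any peak called for sex or the interaction. Other called peaks were named after their values were seen. Of the regulator list at most 4 genes called higher and 4 called lower were named. Alternatives were other scalings (total counts, DESeq2-type size factors, offsets for peak abundance and for width), DESeq2 1.42.0, no filter on low counts, other windows around the genes, each sex fitted alone and each library left out. Together, 18 alternatives to the fit over all peaks were run.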

Additional observations from a re-analysis of the deposited data

Results flagged for a closer look

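In 28 peaks described above, each age was examined for a library whose gap to its nearest neighbour took more than 0.625 of the range of the 6 libraries, which chance alone gives in about 1 of 20 groups. Of 56 groups of 6 libraries, 8 had such a library. Of these, 6 were 3-month groups in which male BM-253 was the highest: 83.2 CPM at the Fos promoter (next 46.6), 64.4 CPM at the Fos peak 18.5 kb upstream (next 43.9), 104 CPM at the Fosl2 promoter (next 60.0), 31.4 CPM at the Fosl2 peak 2.62 kb into the gene (next 22.0), 31.2 CPM at the Atf3 promoter (next 23.5) and 19.4 CPM at the Atf3 peak 18.1 kb upstream (next 13.1). Over all 72 AP-1 peaks the 3-month libraries held such an outlier at 11 (15.3%), each time library BM-253 as the highest, against 6.56% of all tested peaks and 2.44% with that library highest. At 18 months it was 2 of the 72, against 5.11% of all tested peaks. These were male BM-39, with 6.83 CPM at the Fosl2 peak beyond the gene (next 4.08), and male BM-40, with 41.9 CPM at the Jund peak 17.1 kb downstream (next 38.1).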

How the results depend on the processing

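No paired analysis was possible because the replicate numbers are mouse numbers and no number is shared between groups. Run could be fitted as a factor for sex within the 3-month libraries, which gave 0 calls at AP-1 peaks. Of the 17 age calls at AP-1 peaks, 9 held in all 19 fits (8 higher) and 12 in every scaling (11 higher), and 16 kept their sign in all, the exception being the Jund promoter. Leaving out each library in turn gave 12227 to 18745 calls over all peaks, 12 to 24 at AP-1 peaks, 2 to 5 at AP-1 promoters, 9 to 19 at distal AP-1 peaks, 6 to 15 in females, 4 to 8 in males, 0 to 5 for the interaction, 0 to 0 for sex and 12 to 18 for the regulators. The promoter count was 2 without 3-month female BM-245 and 3 without BM-35, BM-36, BM-39, BM-40, BM-243, BM-244 or BM-251, the highest distal count came without male BM-253 and the lowest count in males, 4, without 18-month male BM-40. The count in females was 6 without 18-month female BM-35, without BM-36 and without 3-month female BM-244, 7 without BM-245 and 8 without BM-243, and the 5 interaction calls came without BM-252. The window of 50 kb gave 28 calls. In males, total-count scaling gave 11 calls and the male libraries alone 4. The other alternatives left each of these counts within 1.5 times of its value.

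Single peaks that changed sign were uncalled, apart from the Jund promoter. With total-count scaling, abundance offsets and width offsets in turn, the log2 fold change was 0.072, 0.10 and 0.027 at the Fosb promoter, 0.076, 0.22 and 0.15 at the Fosl2 promoter and 0.050, 0.11 and 0.048 at the strongest distal Batf peak. With abundance and width offsets it was 0.028 and 0.020 at the strongest distal Junb peak and 0.031 and 0.018 at the Jund promoter, and with abundance offsets 0.081 at the Fos promoter. With each library left out in turn it spanned 0 at 20 of the 72 peaks, none of them called with all 12 libraries, and among the promoter and strongest distal peaks named it did so at 5: -0.21 to 0.087 at the Fos promoter, -0.051 to 0.072 at the Fosb promoter, -0.090 to 0.19 at the Fosl2 promoter, -0.079 to 0.050 at the strongest distal Batf peak and -0.016 to 0.088 at the strongest distal Maff peak. The cause was not tested. Over 39 peaks, 593 such comparisons kept direction and call, 67 lost a call, 14 gained one and 28 changed sign. Weak peaks such as those of Batf, at under 10 CPM, have wide errors.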
